A study of Debaryomyces hansenii with 6 samples.

Results

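Gene expression of the yeast Debaryomyces hansenii was compared between cells held for 0.5 h in 2 M NaCl and cells collected at time 0. All arrays labelled as 30 minutes of osmotic stress were taken, which gave 2 of the 6 arrays of the study. The other 4 arrays covered 3 h and 6 h in the same salt, 2 arrays each. Cells had grown in batch culture in YPD, a rich glucose medium, to early logarithmic phase, and the labels name no strain. Each array carried RNA of salt-treated cells and RNA of the time-0 control side by side, in 2 dyes. In replicate 1 the salt-treated RNA carried Cy5 and the control Cy3, and in replicate 2 the dyes were exchanged and different biological replicates of both RNAs were used. Dye orientation and biological replicate therefore cannot be told apart. No culture without salt was sampled at 0.5 h, so the effect of salt and the effect of time after sampling the control cannot be told apart either. The labels do not say whether the arrays of different times share control RNA.

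Debaryomyces hansenii is a salt-tolerant yeast found in seawater and in brined foods. High external salt draws water out of yeast cells and loads them with sodium. In the baker's yeast Saccharomyces cerevisiae the kinase Hog1 is activated under these conditions, glycerol accumulates as a solute that balances the outside, sodium is pumped out, and a large part of the early transcript response is transient. The array files describe no gene by function, and the reference table of this yeast pairs accessions with locus names only, so loci are given by locus name and no function is assigned to them.

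The array carried 12640 probes for 6320 genes, 2 probes per gene, and 5966 genes were measured well enough to be tested. The share of probes well above background was 81.3% for the salt-treated RNA in replicate 1 and 81.4% in replicate 2. For the control RNA it was 71.7% and 62.4%. The log2 ratios below are salt over time 0 after loess normalization, in which each array is centred along its intensity range. A change common to most genes, such as a change in total mRNA per cell, would not appear in them. Fewer transcripts of a gene per cell and fewer cells with that transcript cannot be told apart in such bulk RNA.

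At 0.5 h most genes stood close to their time-0 level. The mean log2 ratio of 5506 of the tested genes (92.3%) lay within 0.5 of 0, and the median over all genes was -0.0035. The 5th and 95th percentiles over genes were -0.47 and 0.53 in replicate 1 and -0.51 and 0.62 in replicate 2. Both arrays gave the same sign for 3479 of 5961 genes (58.4%), and their ratios correlated across genes at r = 0.45, a description of genes that are not independent replicates. Within an array, both probes of a gene correlated at r = 0.83 in replicate 1 and 0.82 in replicate 2, so a gene's probes resembled each other more than its arrays did. The arrays gave opposite signs with both values past 0.5 for 13 genes, and the same sign with both past 0.5 for 241 genes.

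A small set of loci stood far from the rest, and 4 passed limma's moderated test at an adjusted p of 0.05 in the fit over 6 arrays. DEHA2E05148g rose (1 gene, 0.0168% of those tested), and DEHA2E14234g, DEHA2E01166g and DEHA2E21582g fell (3 genes, 0.0503%). Together they are 0.067% of the 5966 genes tested, and 509 genes (8.53%) had an unadjusted p under 0.05. The count depends on how the spread between arrays is estimated. This fit uses a common spread over all 3 times, and so does the fit with the replicate number as a block. With that block, which also takes up the dye orientation, 58 genes passed (0.972%), 31 higher and 27 lower, among them all 4. From the 0.5 h arrays alone 180 genes passed (3.02%), 90 higher and 90 lower (1.51% each), again with all 4. Leaving out replicate 1 of 0.5 h left 0 calls, with 322 genes at an unadjusted p under 0.05, and leaving out replicate 2 left 1. Without either 3 h array 20 genes passed, and without either 6 h array 14. Centring the arrays on their median in place of loess turned the split of calls from 1 higher and 3 lower to 5 higher and 1 lower.

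**Figure D1:**
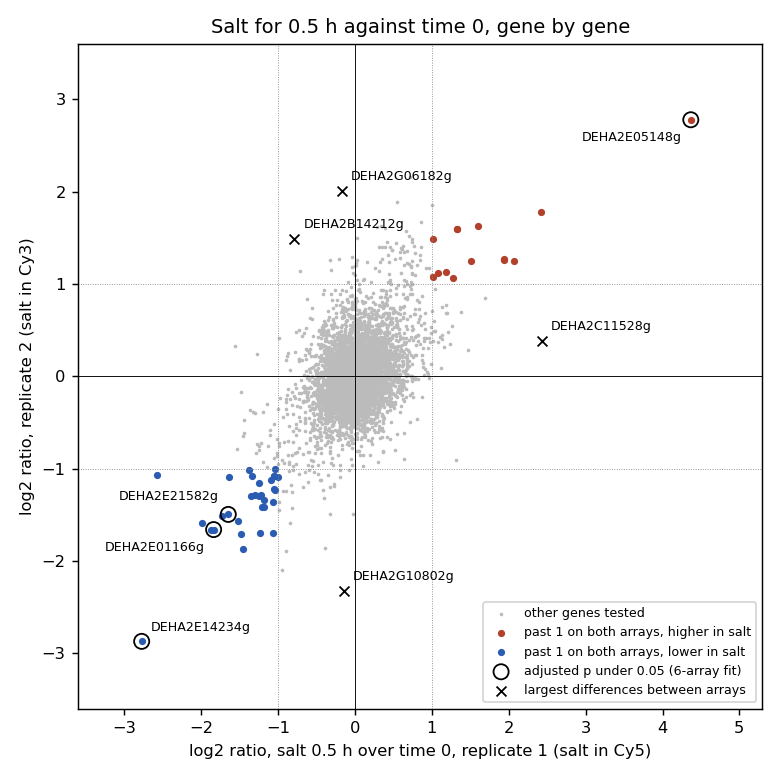
Log2 ratio of salt for 0.5 h over time 0 on the replicate 1 array (horizontal axis, salt in Cy5) and on the replicate 2 array (vertical axis, salt in Cy3). Each point is 1 gene. Coloured points are the 14 genes above 1 and the 31 genes below -1 on both arrays, open circles mark the 4 loci called in the 6-array fit, and crosses mark the loci on which the arrays differed most. DEHA2E05148g and DEHA2E14234g lie apart from the cloud, which is centred on 0.

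DEHA2E05148g had the highest ratio at 0.5 h. Its normalized signal was 353 in the control and 7279 in salt in replicate 1, and 866 in the control and 5946 in salt in replicate 2. Salt lay above control within each array. Signals of different arrays were not scaled to each other, so levels are compared only within an array. The log2 ratios were 4.37 and 2.78, a mean of 3.57 ± 1.12 (SD, n = 2 arrays) and an 11.9-fold rise, and limma gave adjusted p = 0.00902 without and 0.00247 with the replicate block. Its second probe gave 4.24 and 2.91, so the gap between arrays was present in both probes. The 3 h arrays still showed it above time 0, at 2.15 and 2.04 (adjusted p = 0.0137 in limma). The 6 h arrays gave 0.58 and 0.19, a difference that did not pass (adjusted p = 0.532 in limma). The difference between 6 h and 0.5 h was -3.19 and did not pass (adjusted p = 0.123 in limma).

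DEHA2E14234g was the locus with the strongest fall and the closest replicates among the 4. Its normalized signal was 2749 in the control and 401 in salt in replicate 1, and 2778 and 380 in replicate 2. On each array the control lay far above salt. The log2 ratios were -2.78 and -2.87, a mean of -2.82 ± 0.07 (SD, n = 2 arrays), which is 7.08-fold lower (adjusted p = 0.00153 in limma). The second probe gave -2.95 and -2.86.

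Later ratios of the same locus were not low. The arrays gave 0.66 and 0.36 at 3 h and 0.65 and 0.12 at 6 h, and neither mean differed from time 0 past the threshold (adjusted p = 0.115 and 0.236 in limma). The rise from 0.5 h itself was tested. It was 3.33 ± 0.25 (SE) to 3 h with an adjusted p of 0.00608 and 3.21 ± 0.25 (SE) to 6 h with an adjusted p of 0.00805, both in limma. Across all genes 1 passed the test between 3 h and 0.5 h (0.0168%) and 2 passed that between 6 h and 0.5 h (0.0335%). Without either 0.5 h array both calls were lost, with values from 3.16 to 3.38 and adjusted p from 0.156 to 0.262 in limma, and without replicate 1 of 6 h the 6 h call was lost (2.95, adjusted p = 0.0593). The 3 h call was also lost under 4 other processing choices and the 6 h call under 3, with adjusted p from 0.055 to 0.135 in limma.

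DEHA2E01166g and DEHA2E21582g were low at 0.5 h and low afterwards. The signal of DEHA2E01166g went from 1125 in the control to 314 in salt in replicate 1 and from 640 to 203 in replicate 2. Its log2 ratios were -1.84 and -1.66, a mean of -1.75 ± 0.13 (SD, n = 2 arrays; adjusted p = 0.00902 in limma). The later means were -1.95 at 3 h and -2.14 at 6 h (adjusted p = 0.00386 and 0.0017 in limma). The differences between these and 0.5 h were -0.20 ± 0.22 and -0.39 ± 0.22 (SE) and did not pass (adjusted p = 0.823 and 0.756 in limma).

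The signal of DEHA2E21582g went from 879 to 280 in replicate 1 and from 437 to 155 in replicate 2. The log2 ratios were -1.65 and -1.50, a mean of -1.57 ± 0.11 (SD, n = 2 arrays), and limma gave adjusted p = 0.0194. Its later means were -1.63 at 3 h and -2.11 at 6 h (adjusted p = 0.00405 and 0.0017 in limma). The log2 ratio of replicate 1 minus that of replicate 2 was -0.18 for DEHA2E01166g and -0.15 for DEHA2E21582g.

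**Figure D2:**
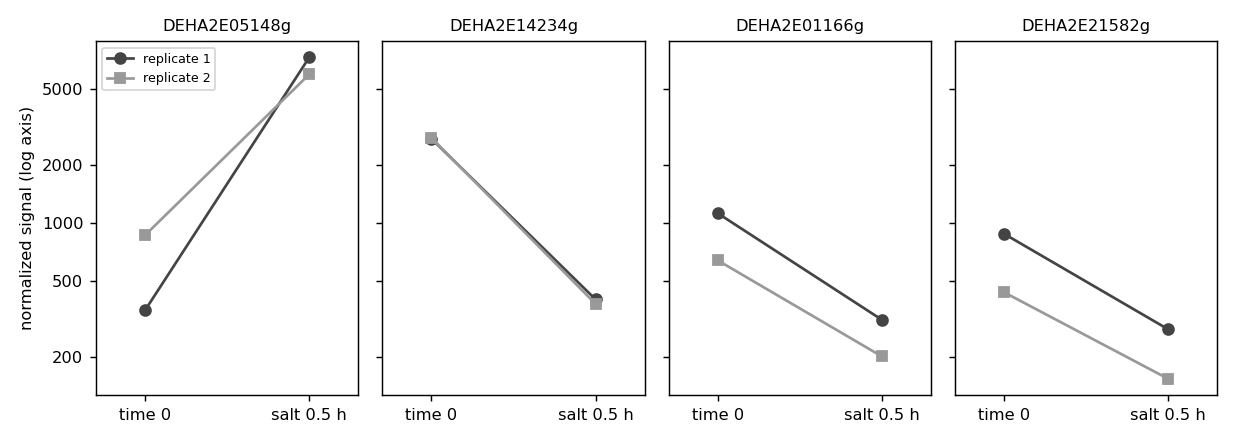
Normalized signal of the brighter probe of the 4 called loci in the time-0 control and after 0.5 h in salt, on a log axis, with 1 line per array. The line of DEHA2E05148g goes up from 353 and 866 to 7279 and 5946, and the lines of the other 3 go down on both arrays. Signals of different loci, and of different arrays, are not on a common scale, and only the slope of each line is compared.

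**Figure D3:**
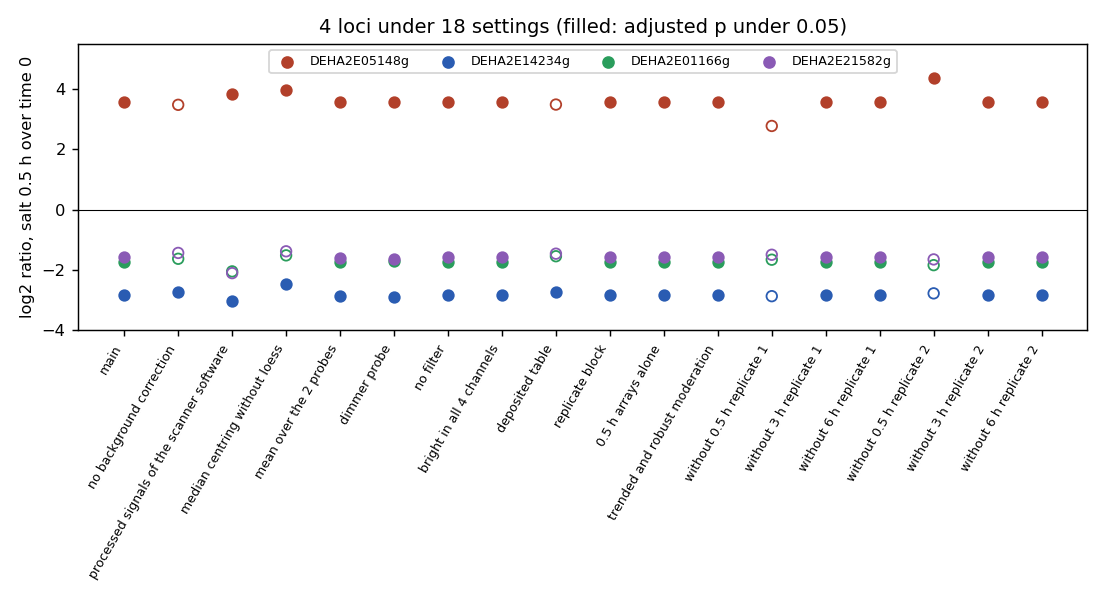
Log2 ratio of salt for 0.5 h over time 0 for the 4 called loci under the main processing (first position) and 17 alternatives, along the horizontal axis. Filled points have an adjusted p under 0.05 and open points do not. Each locus kept its sign, with DEHA2E05148g between 2.78 and 4.37 and DEHA2E14234g between -3.03 and -2.47. Changes to the fit, the filter or the later arrays left the ratios as they were. The ranking had also required the same sign on both arrays and in both probes. The sign was free to change only without background correction, with processed signals, with median centring or in the deposited table. DEHA2E05148g lost its call under 3 alternatives, DEHA2E14234g under 2, and DEHA2E01166g and DEHA2E21582g under 6 each.

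The 58 genes that passed with the replicate block had smaller ratios on the whole. The median was 1.08 for the 31 higher and -1.06 for the 27 lower, and the smallest sizes that passed were 0.81 and 0.79. The later medians of the higher genes were 1.76 at 3 h and 2.05 at 6 h, and those of the lower genes -0.47 and -1.03. Over all genes the medians were 0.02 and -0.01. The 58 genes were chosen on ratios to time-0 RNA that the later arrays may share, so nothing is read from their later medians. By its mean over the 2 arrays, the second probe had the same sign as the first for all 58. It measured the same RNA on the same arrays, and the share over all genes was not counted.

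Among loci with the same sign on both arrays and in both probes, the 12 with the highest moderated statistics include DEHA2E05148g and 11 that did not pass in the 6-array fit, with adjusted p from 0.0729 to 0.196. With the replicate block 9 of the 12 passed, with adjusted p from 0.00247 to 0.0683 over the 12. Of all genes, 0.52% passed as higher in that fit, and since the 12 were ranked on the same contrast, nothing is read from their count. Both probes were above 0 on both arrays for each of them because the ranking required it.

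The first of these in rank after DEHA2E05148g were DEHA2B05060g, at 2.07 and 1.25 on the arrays, DEHA2G17820g, at 1.93 and 1.26, and DEHA2B16500g, at 1.69 and 0.85. DEHA2E22946g gave 1.94 and 1.28. These 4 had the larger ratio in replicate 1, as did 8 of the 12. Other loci had nearly equal arrays. DEHA2G12650g gave 1.60 and 1.63, DEHA2F17776g 1.08 and 1.12, and DEHA2G00946g 0.87 on both. DEHA2F04752g gave 0.78 and 0.73. DEHA2B12188g (0.75 and 1.11) and DEHA2C12848g (0.81 and 1.21) were higher in replicate 2, and DEHA2E15268g gave 0.91 and 0.69 with its second probe at 1.06 and 0.25.

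The 12 lowest include the 3 called loci and 9 with adjusted p from 0.0629 to 0.133. With the replicate block all 12 passed, the highest adjusted p in limma being 0.0384, where 0.453% of all genes passed as lower. These 12 were also ranked on the same contrast, so nothing is read from their count either. DEHA2C07832g had a control signal of 1080 and a salt signal of 294 in replicate 1, and 952 and 300.2 in replicate 2, which are log2 ratios of -1.88 and -1.66. DEHA2G03564g gave -1.99 and -1.59, and DEHA2C13288g -1.64 and -1.09. DEHA2B03828g gave -1.21 and -1.42, DEHA2D08426g -0.99 and -1.45, and DEHA2G03740g -0.99 and -1.36. The smallest drops were those of DEHA2G21296g (-1.05 and -1.01), DEHA2B11440g (-1.25 and -0.79) and DEHA2B09944g (-1.06 and -0.88).

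**Figure D4:**
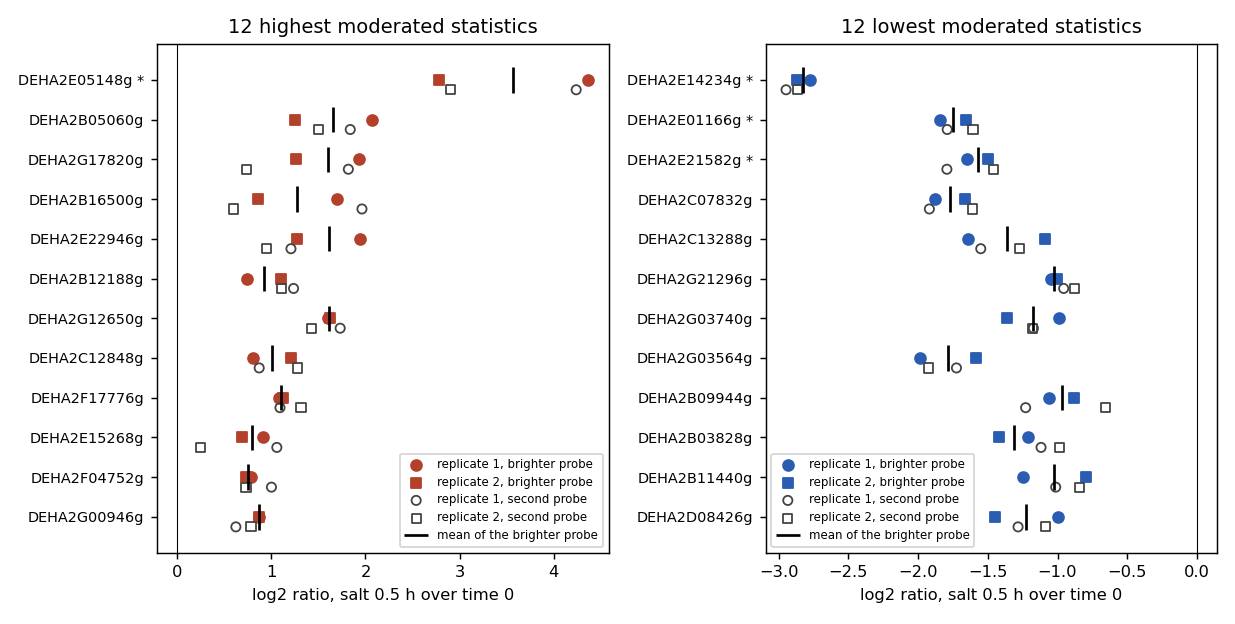
Log2 ratio of salt for 0.5 h over time 0 for the 12 loci with the highest (left) and the 12 with the lowest (right) moderated statistic. Filled symbols are the brighter probe and open symbols the second probe, circles are replicate 1 and squares replicate 2, and a short line marks the mean of the brighter probe. An asterisk marks the 4 loci with an adjusted p under 0.05 in the 6-array fit, and the lowest locus, DEHA2E14234g, has all its values between -2.95 and -2.78.

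The later arrays divided the 12 highest loci. Of these, 6 were also called as higher at 3 h and 5 at 6 h, 5 at both times, and 6 at neither. The share of all genes called at 3 h or 6 h was not counted. One fit gave both the ranking and the later tests, so nothing is read from these counts. DEHA2G17820g averaged 1.60 at 0.5 h. Its 3 h arrays gave 3.41 and 3.57, and its 6 h arrays 1.47 and 2.33 (adjusted p = 0.00322 and 0.00571 in limma). DEHA2E22946g went from 1.61 to 2.27 and 2.37, and DEHA2F17776g from 1.10 to 2.02 and 2.06. DEHA2B12188g had means of 0.93, 0.75 and 1.61 at the 3 times, and DEHA2C12848g of 1.01, 1.09 and 1.81. DEHA2B05060g went the other way, from 1.66 to 0.89 and 0.02, and DEHA2B16500g from 1.27 to 0.60 and 0.27. DEHA2F04752g and DEHA2G00946g were on the low side of 0 at 6 h, at -0.51 and -0.53. None of these differences between a later time and 0.5 h passed the test (adjusted p from 0.161 upward in limma).

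Of the 12 lowest, 5 were also called as lower at 3 h and 8 at 6 h, 5 at both times, and 4 at neither. Here too the share over all genes was not counted and the ranking shares its fit with the later tests, so nothing is read from the counts. DEHA2C13288g (-0.92 and -1.34 at 3 h and 6 h), DEHA2B09944g (-0.67 and -1.02) and DEHA2B11440g (-0.77 and -0.80) were called at both later times beside the pair described above. DEHA2G21296g was at 0.10 and 0.37 later and DEHA2C07832g at -0.15 and -0.31. DEHA2G03740g was lower at 0.5 h (-1.18), higher than time 0 at 3 h (1.09 and 0.61 on the arrays, adjusted p = 0.0305) and lower again at 6 h (-0.76 on both arrays, adjusted p = 0.0394), with limma in each case. Its difference of 2.03 between 3 h and 0.5 h had an adjusted p of 0.0784. All times were measured against time-0 RNA that may be shared, so the values are given side by side and no agreement between times is drawn from them.

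**Figure D5:**
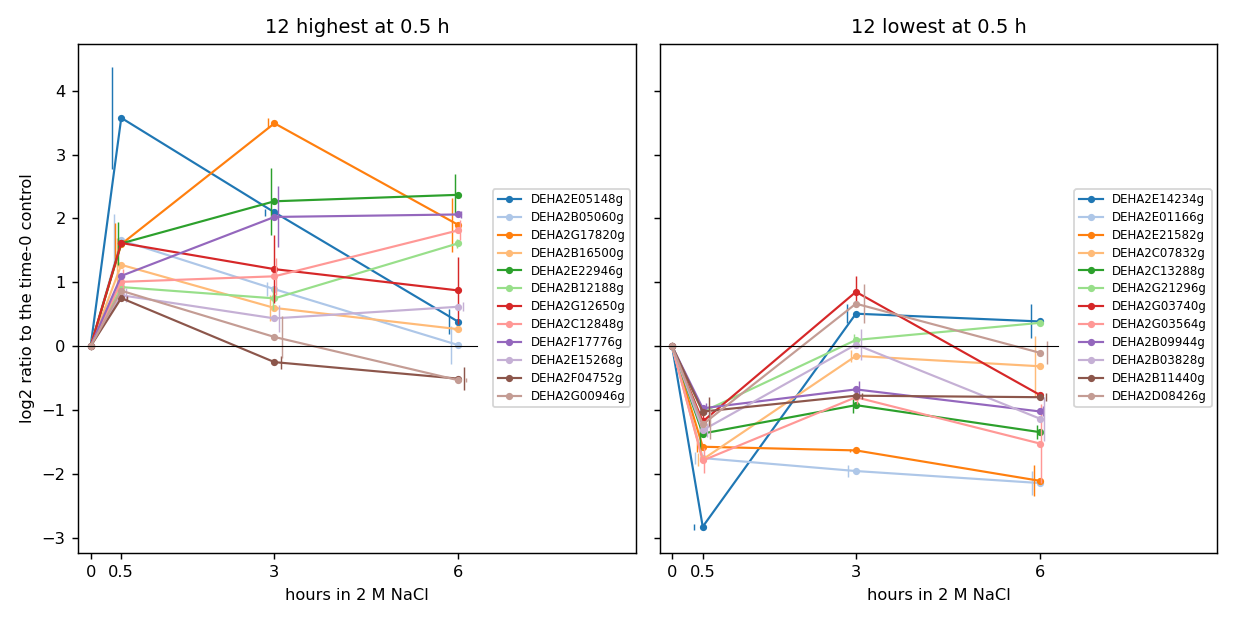
Mean log2 ratio to the time-0 control after 0.5, 3 and 6 h in 2 M NaCl for the 12 highest (left) and 12 lowest (right) loci of 0.5 h. Lines join the means of 2 arrays, the value at 0 h is 0 by definition, and the vertical bars, shifted sideways to stay apart, run from one array to the other. DEHA2E14234g goes from -2.82 at 0.5 h to 0.51 and 0.39, while DEHA2E01166g and DEHA2E21582g stay between -2.14 and -1.57.

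A wider set is given by size alone. On both 0.5 h arrays 14 genes exceeded a log2 ratio of 1 (0.235% of 5961) and 31 were below -1 (0.52%), 0.755% in all. This balance depends on the normalization, since median centring gave 25 higher and 7 lower, and the processed signals of the scanner software 78 and 85. Their medians were 1.46 and -1.30. Of the 45, 4 passed in the 6-array fit, 19 with the replicate block and all 45 from the 0.5 h arrays alone, a fit that uses the same values as the size rule. The second probe was also past 1 in the same direction on both arrays for 8 of 13 higher and 20 of 31 lower genes, and had the same sign for all of them. None was dim in either RNA on either array by the scanner's own flag.

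The size rule required both 0.5 h arrays to lie past 1 on the same side, which favours a small spread at 0.5 h. The spread at 0.5 h therefore cannot be compared fairly with that of arrays the rule did not use. Why the spread differed between 3 h and 6 h was not tested. The spreads are given as a description. For the 31 lower genes the median SD between arrays at 0.5, 3 and 6 h was 0.13, 0.26 and 0.86, against 0.16, 0.22 and 0.16 over all genes. At 6 h replicate 2 was the lower array for 27 of the 30 genes measured on both, with medians of -0.66 in replicate 1 and -1.91 in replicate 2, while over all genes replicate 2 was lower for 49.6%. For the 14 higher genes the median SD at the 3 times was 0.19, 0.84 and 0.62. At 3 h replicate 2 was the higher array for 13 of the 14, with medians of 0.89 and 2.61, where 54.6% of all genes were higher on it. This spread of the later arrays enters the test at 0.5 h in the 6-array fit. Whether it comes from the dye or from the cultures cannot be told apart.

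The following loci, outside the rule for named genes, were chosen after their values were seen. DEHA2E08866g was second among the higher genes by size, at 2.42 and 1.78 on the 0.5 h arrays, yet its 3 h arrays gave 0.03 and 2.73, and it passed neither in the 6-array fit (adjusted p = 0.298 in limma) nor with the block (0.132). DEHA2E20834g gave -1.52 and -1.57 at 0.5 h and 0.18 and -2.72 at 6 h (adjusted p = 0.495 in limma). DEHA2F15180g gave -1.23 and -1.29 at 0.5 h and -0.24 and -2.57 at 6 h (adjusted p = 0.473 in limma). Among the lower genes the widest gap at 0.5 h itself was that of DEHA2D01474g, at -2.58 in replicate 1 and -1.07 in replicate 2 (adjusted p = 0.196 in limma). DEHA2B14344g gave 1.33 and 1.60 at 0.5 h, and means of 2.26 at 3 h and 2.25 at 6 h. It passed in limma with the block (adjusted p = 0.0384) but not without it (0.314).

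The largest disagreements between the 0.5 h arrays were of the same order as the largest shared responses. DEHA2G10802g gave -0.14 in replicate 1 and -2.32 in replicate 2, and DEHA2C11528g gave 2.43 and 0.39. DEHA2B14212g gave -0.79 and 1.49, and DEHA2G06182g -0.18 and 2.01. The second probe gave -0.32 and -1.93 for DEHA2G10802g, -0.66 and 1.43 for DEHA2B14212g and -0.23 and 1.72 for DEHA2G06182g, close to the first probe. For DEHA2C11528g it gave 1.09 and 0.49, a much smaller gap between arrays than that of the first probe. None of the 4 was called, and the arrays differed by more than 1 for 86 genes (1.44%). At 3 h DEHA2C11528g was at 3.15 and 2.97, the arrays close together (adjusted p = 0.0116 in limma), whereas DEHA2G06182g was at -0.19 and 4.26.

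The ratio of a locus on one array and that of the next locus on the other array correlated at r = 0.10 over 4321 pairs, against 0.06 at a distance of 2 loci and 0.005 at 50 loci, as a description over pairs that share arrays. DEHA2E14234g, at -2.82, lay between loci at 0.12 and -0.01, and DEHA2E01166g between loci at 0.29 and -0.03. Of the 40 measured neighbours of the 24 highest and lowest loci, 36 had a mean within 0.5 of 0, a range that held 92.3% of all genes. Past 0.5, 3 lay in the direction of the named locus and 1 in the opposite direction. No share over all genes was counted for direction or for adjacent pairs, so nothing is read from those counts. DEHA2E22968g gave 0.68 and 0.84 on the arrays beside DEHA2E22946g at 1.61, and DEHA2C13310g gave -0.44 and -1.12 beside DEHA2C13288g at -1.37. DEHA2G03718g gave 0.68 and 0.86 beside DEHA2G03740g at -1.18. The 45 genes past 1 held 1 adjacent pair, DEHA2C07810g and DEHA2C07832g, which was also the 1 adjacent pair among the 58 genes passing with the replicate block. DEHA2C07810g gave -1.30 and -1.29 on the arrays, and passed in limma with the block (adjusted p = 0.0384) but not without it (0.196), beside -1.88 and -1.66 for DEHA2C07832g. Both stood near time 0 at 3 h, at 0.17 and -0.15, and at -0.88 and -0.31 at 6 h. These neighbours were named after their values were seen.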

How the data were processed

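Each of 6 Agilent 2-colour arrays held RNA of salt-treated and time-0 cells, and 2 were of 0.5 h. Per the file headers, the authors obtained the deposited intensities, medians of each spot and its local background, in Feature Extraction 9.1.3.1. The deposited table holds log2 ratios of stressed over control, whose scale and direction were found here by comparison with the scanner signals (r = 0.957 on both 0.5 h arrays, column medians -0.00121 and 0.00289), and the submitters' processing notes name limma, while its centring is unknown.

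In limma 3.58.1 (R 4.3.3), median intensities were background-corrected with normexp (offset 50) and loess-normalized within arrays, with control spots at weight 0 in loess. Flagged outliers were left out, 18 values in all and 6 at 0.5 h. A probe was kept if at least 2 of its 12 channel values were well above background, leaving 5966 genes with 11721 probes. The brighter probe stood for its gene. Printed signals are channel values after these steps, without scaling between arrays. The fit (lmFit, eBayes) used all 6 arrays, with Benjamini-Hochberg adjustment over all genes tested. It was tested on simulated data with independent errors between arrays, so the simulation lacked the shared deviation of same-numbered arrays given below. With 2 arrays per time their number limits the precision. Same-numbered arrays deviated together (r = 0.19, 0.31 and 0.37 for the 3 pairs of times), so results with the replicate number as a block are also given. They are given for some loci singly and for sets of loci as counts or ranges. Calls at 3 h and 6 h against time 0 are from the fit without the block. Replicates are biological per the series design.

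Accessions were matched to locus names of assembly ASM644v2 for 5348 of 6320 genes, 5120 of those tested, and the table served only for names and neighbour order. Functional gene lists had no annotated member and were not run. Named were loci called at 0.5 h, the 12 highest and 12 lowest statistics with the same sign on both arrays and probes, and the 2 largest differences between arrays in each direction. Members and lists were chosen with earlier results of these data known. Of 118 probes of 59 genes compared with the array's other probes, 24 shared 15 or more bases with a probe of another gene, the longest run being 20 bases, for DEHA2E08866g and DEHA2D12716g among others. The alternatives were background correction, scanner-processed signals, median centring, probe choice, filters, the deposited table, the replicate block, 0.5 h arrays alone, trended and robust moderation, and leaving out each array.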

Additional observations from a re-analysis of the deposited data

Results flagged for a closer look

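The ratio of DEHA2E14234g to time 0 differed between times by the test of the difference itself. Its mean log2 ratio went from -2.82 at 0.5 h to 0.51 after 3 h and 0.39 after 6 h. The difference was 3.333 from 0.5 h to 3 h (adjusted p = 0.00608 in limma) and 3.211 from 0.5 h to 6 h (adjusted p = 0.00805 in limma). All 4 later arrays were higher than both 0.5 h arrays, but the locus ranked lowest at 0.5 h, which favours that order. With the replicate block the adjusted p values were 0.00218 and 0.00286. No group of 4 or more arrays existed, so no single array was tested as an outlier.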

How the results depend on the processing

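The fit over 6 arrays called 4 genes at 0.5 h. Without background correction 1 gene was called, 2 with the processed signals of the scanner software, and 1 with the deposited table. With the replicate block 58 genes were called and from the 0.5 h arrays alone 180. Leaving out single arrays gave 0 to 20 calls. Averaging the probes gave 5, the dimmer probe 6, median centring 6 (2 of the 4 among them), and the other filters and trended, robust moderation 4, the same 4 genes. Genes past 1 on both arrays numbered 45, 163 with the processed signals and 32 to 45 under the other alternatives run for this count. Of 476 values of the 28 named loci under alternatives, 384 kept their direction and side of the threshold, 17 lost and 73 gained a call, and 2 reversed. Changes to the fit, the filters or the later arrays left the 0.5 h ratios as they were. Leaving out either 3 h array gave the same result at 0.5 h, as did leaving out either 6 h array. For the highest and lowest loci the naming rule also fixed the sign on each array and in each probe. The tally therefore does not measure how stable the directions are. The reversals came without replicate 2 of 0.5 h, when DEHA2B14212g went from 0.35 to -0.791 and DEHA2G06182g from 0.92 to -0.176, against 1.49 and 2.01 without replicate 1; each value is then that of a single array. The differences of DEHA2E14234g between times, tested under alternatives chosen after seeing the data, kept their sign. The 3 h call was lost with the processed signals (3.55, adjusted p = 0.117), median centring (2.37, 0.0618), the deposited table (3.07, 0.135) and trended, robust moderation (3.33, 0.0604), all in limma. The 6 h call was lost with the processed signals (3.44, adjusted p = 0.0732), the deposited table (3.06, 0.116) and trended, robust moderation (3.21, 0.055), all in limma. The cause of these changes was not tested. Leave-one-out fits also hold fewer arrays. Negative controls had median signals of 73 to 118, against 112.5 to 290.5 over all gene probes of the 0.5 h arrays, and the offset of 50 draws ratios of dim probes toward 0.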
